A study of Mus musculus with 17 samples.

Results

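The contacts described here lie at mid-range around the mouse alpha-globin locus on chromosome 11. A mid-range contact is a fragment whose midpoint lies over 200 kb and at most 2 Mb from the centre of the capture viewpoint. Both alpha-globin viewpoints were used: the R2 enhancer, centred at chr11:32151017, and the alpha CTCF site, centred at chr11:32137490 (mm9). From R2, 52300 of 514959 distinct fragment pairs held at least 1 mid-range fragment, and from alpha CTCF 55985 of 448951 did. Together these were 108285 of 963910 pairs in the alpha tables, while the whole series, with its beta-globin viewpoints, listed 1997429. Position alone chose the members, so their counts in each cell type played no part in the choice.

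The method was Tri-C, in which cross-linked chromatin is cut with NlaIII, ligated, and enriched by oligonucleotide capture for a viewpoint, so that one read joins the viewpoint with 2 further fragments of the same allele. The erythroid group was Ter-119+ cells, selected with magnetic beads from spleens of female C57BL/6 mice after phenylhydrazine, a haemolytic agent that drives red cell production in the spleen. Per the labels, 3 doses of 40 mg/g body weight were given 12 h apart and the mice were killed after 5 days. The ES group was the E14 embryonic stem cell line of strain 129/Ola. Each cell type comes from its own strain, so effects of strain and of cell type cannot be told apart here. The 10 erythroid and 7 ES libraries are technical repeats, per the labels, of 3 biological replicates for each cell type; they were summed within these, giving n = 3 per group. The labels do not say whether these replicates were separate animals or cultures, so the p-values reflect only how far these samples spread, which may be technical.

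R2 is the strongest of the enhancers that lie upstream of the alpha-globin genes and activate them in red cell precursors. CTCF is a DNA-binding protein that stops loop extrusion by cohesin, and CTCF sites flanking the alpha-globin genes are known boundaries of a domain that becomes self-interacting in erythroid cells. Contact frequency in such assays falls with distance along a chromosome, and domain boundaries appear as steps in that fall. Below, upstream means lower coordinates than the viewpoint, the side on which Nprl3 (a subunit of an mTORC1-inhibiting complex whose introns hold R2), Mpg (a DNA repair glycosylase), Rhbdf1, Snrnp25, Il9r, Nsg2, Cpeb4, Bod1 and Stc2 follow each other in the GRCm38.p6 gene table. Downstream means higher coordinates, where Sh3pxd2b, Ubtd2, Efcab9, Stk10 (a kinase), Fbxw11 (a ubiquitin ligase subunit), Fgf18 (a growth factor), Npm1 (nucleophosmin) and Tlx3 follow the alpha-globin genes. No mm9 annotation was used, so these names give only the order of neighbours, and no gene is assigned to a window.

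The biological replicates held 139337 to 469501 counts from R2 and 129858 to 459669 from alpha CTCF. Levels were scaled to pairs with both fragments on chromosome 11, of which there were 74599 to 195430 in erythroid and 107265 to 273029 in ES replicates from R2, and 131424 to 304448 against 85615 to 202664 from alpha CTCF. A mid-range pair was counted 2.64 to 2.89 times on average in erythroid replicates and 3.44 to 3.72 times in ES replicates. The lower erythroid means came from the erythroid technical replicate 1 libraries, at 1.31 to 1.36. The other erythroid libraries had 3.29 to 4.07 and the ES libraries 3.34 to 3.79. Without molecular identifiers, repeats of a pair cannot be taken as independent molecules. The mean level of a 50 kb bin over 10 Mb away was 0.338 to 0.457 contacts per 1000 pairs in erythroid cells, against 0.141 to 0.203 in ES cells, from R2. From alpha CTCF it was 0.267 to 0.368 in erythroid cells, against 0.153 to 0.213 in ES cells. Contacts at the largest distances were thus more frequent in the erythroid libraries on this scale. The far level was subtracted only for the level and the asymmetry, and the part of this difference in the results below was not tested.

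Mid-range contacts were less frequent in erythroid cells than in ES cells, and the loss lay mainly downstream. From R2, erythroid replicates 1 to 3 made 191, 178 and 226 mid-range contacts per 1000 pairs, whereas ES replicates 1 to 3 made 372, 344 and 426. The groups did not overlap, with 198 ± 25.1 contacts in erythroid cells and 381 ± 41.5 in ES cells (SD, n = 3), a log2 difference of -0.94 (SE 0.14; exact two-sided permutation p = 0.1). The erythroid replicates seen from alpha CTCF gave 228, 239 and 232 contacts per 1000 pairs, whereas ES replicates gave 333, 334 and 419.9. Here too every erythroid replicate was below every ES replicate, with 233 ± 5.56 contacts in erythroid cells and 362 ± 50.1 in ES cells (SD, n = 3) and a log2 difference of -0.63 (SE 0.11; exact permutation p = 0.1). A p of 0.1 is the smallest that 3 against 3 allows. Adjusted over the 8 comparisons of level, decay, asymmetry and nearby partners it became 0.133. Per 1000 pairs of the whole table instead, the log2 difference from R2 was -2.04 and that from alpha CTCF -0.66. Scaled to 1000 pairs with both fragments within 200 kb, the groups from R2 stayed apart but those from alpha CTCF overlapped. The alpha CTCF values were then 468, 540 and 439 in erythroid replicates and 627, 538.5 and 871 in ES replicates.

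Erythroid cells favoured upstream over downstream mid-range contacts, while ES cells had nearly balanced sides. The asymmetry is the log2 ratio of upstream to downstream contacts within a replicate and so does not depend on the scaling. From R2 it was 1.20, 0.82 and 0.81 in erythroid replicates and -0.22, -0.17 and -0.19 in ES replicates. The alpha CTCF values were 0.89, 0.97 and 0.72 in erythroid replicates and -0.19, -0.16 and -0.24 in ES replicates. All erythroid replicates leaned upstream and all ES replicates leaned slightly downstream. The difference between cell types was 1.14 (SE 0.13) from R2 and 1.05 (SE 0.08) from alpha CTCF (n = 3 each, exact permutation p = 0.1 for both, adjusted 0.133). With the mean level beyond 10 Mb subtracted from each side, it was 1.33 from R2 and 1.16 from alpha CTCF. Taking the same amount from both sides moves every ratio away from 0, so the difference could not have become smaller. The part of the far contacts in the asymmetry is therefore not settled by this subtraction.

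The asymmetry changed with distance in different ways from each viewpoint. From R2 the erythroid asymmetry averaged 1.25 at 200 to 500 kb, 0.90 at 500 kb to 1 Mb and 0.47 at 1 to 2 Mb, against -0.30, 0.02 and -0.24 in ES cells. The erythroid values from alpha CTCF were 0.69, 1.17 and 0.95 over the same ranges, against -0.31, 0.05 and -0.22 in ES cells. In each of the 3 ranges and from both viewpoints, all erythroid replicates were above all ES replicates.

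**Figure D1:**
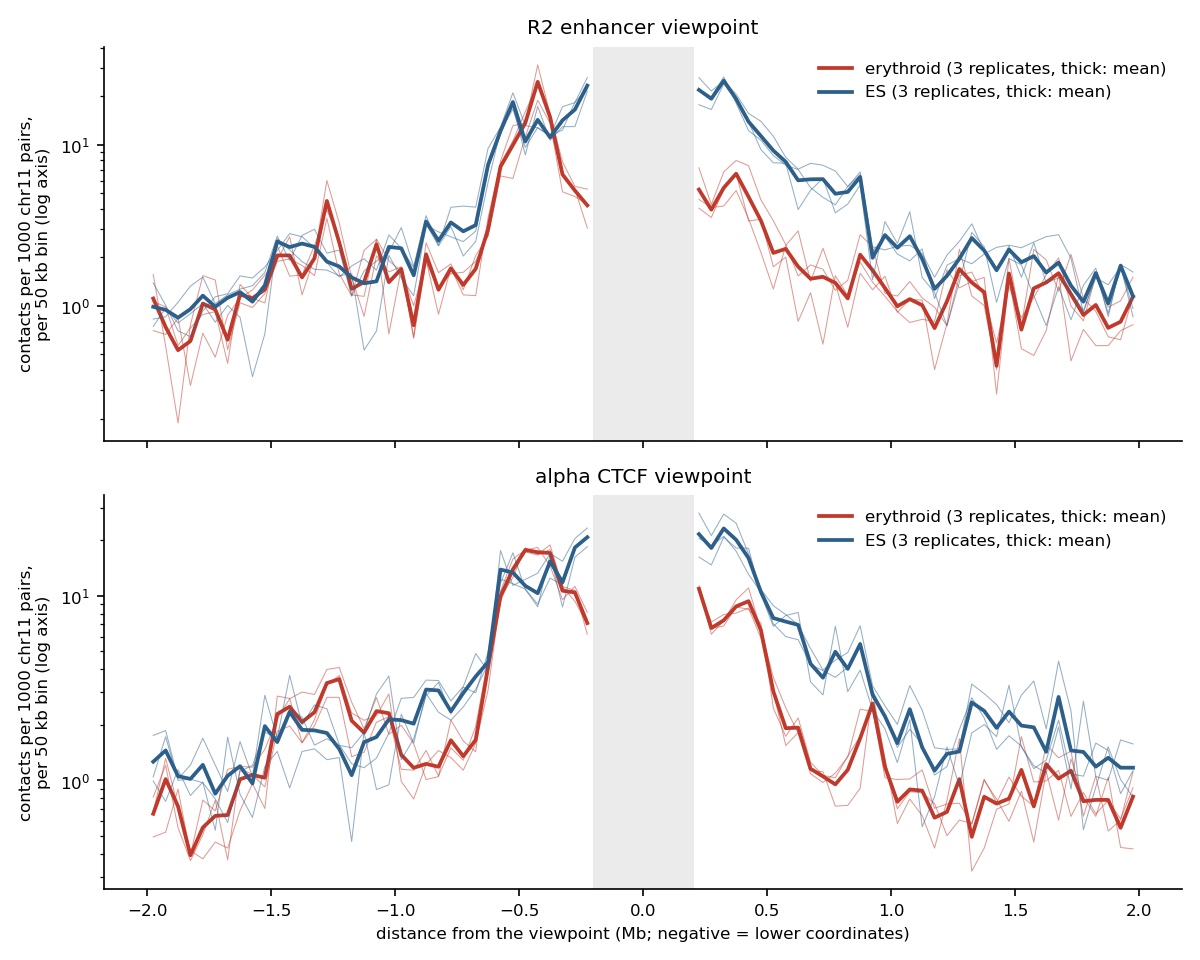
Mid-range contacts per 1000 chromosome 11 pairs (log axis) in 50 kb bins by distance from the viewpoint in Mb, negative values upstream, for R2 (top) and alpha CTCF (bottom). Thin lines are the 3 erythroid and 3 ES replicates and thick lines their means. The erythroid line lies below the ES line on nearly the whole downstream side, and upstream it peaks near 400 to 500 kb and drops past 600 kb.

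Zone by zone, 4 of the 6 mid-range zones were lower in erythroid cells from R2 and 4 of 6 from alpha CTCF, and none was higher in the edgeR fit. Among all 14 distance zones of the chromosome, 42.9% were called lower and 28.6% higher from R2, and 50% lower and 28.6% higher from alpha CTCF (edgeR quasi-likelihood test, adjusted p under 0.05). All 3 downstream zones were lower from both viewpoints. At 200 to 500 kb downstream, R2 made 26.3, 23.7 and 38.2 contacts per 1000 pairs in erythroid replicates and 109, 100.4 and 123 in ES replicates, a log2 change of -1.91 (SE 0.19, edgeR adjusted p = 4.4e-13). At 500 kb to 1 Mb downstream the change from R2 was -1.76 (SE 0.20) and at 1 to 2 Mb it was -0.71 (SE 0.19). The downstream fall from R2 was thus smaller in the outermost zone. Seen from alpha CTCF, the same zones changed by -1.14 (SE 0.14), -1.56 (SE 0.15) and -1.06 (SE 0.17).

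The upstream zones behaved differently. At 200 to 500 kb upstream, R2 made 70.2, 57.9 and 79.1 contacts per 1000 pairs in erythroid replicates and 86.8, 84.04 and 98.9 in ES replicates. The groups did not overlap, but the log2 change of -0.38 (SE 0.18) missed the threshold (edgeR adjusted p = 0.056), and it passed in 9 of the 15 alternative settings. The same zone seen from alpha CTCF gave 81.4, 79.4 and 79.9 in erythroid replicates and 82.5, 79.6 and 101.6 in ES replicates, overlapping values with a change of -0.13 (SE 0.13, edgeR adjusted p = 0.37). At 500 kb to 1 Mb upstream the level was lower in erythroid cells, by -0.89 (SE 0.19, edgeR adjusted p = 4.1e-05) from R2 and -0.44 (SE 0.14, edgeR adjusted p = 0.014) from alpha CTCF. The call from alpha CTCF was lost with TMM factors (-0.22) and without erythroid replicate 1 (-0.37) or 3 (-0.42). At 1 to 2 Mb upstream the changes were -0.01 (SE 0.19) and 0.13 (SE 0.16), neither past the threshold. DESeq2 called this zone higher in erythroid cells from alpha CTCF (0.32, DESeq2 adjusted p = 0.0084), and per pair of the whole table edgeR called it lower from R2 (-1.07, edgeR adjusted p = 0.002).

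**Figure D2:**
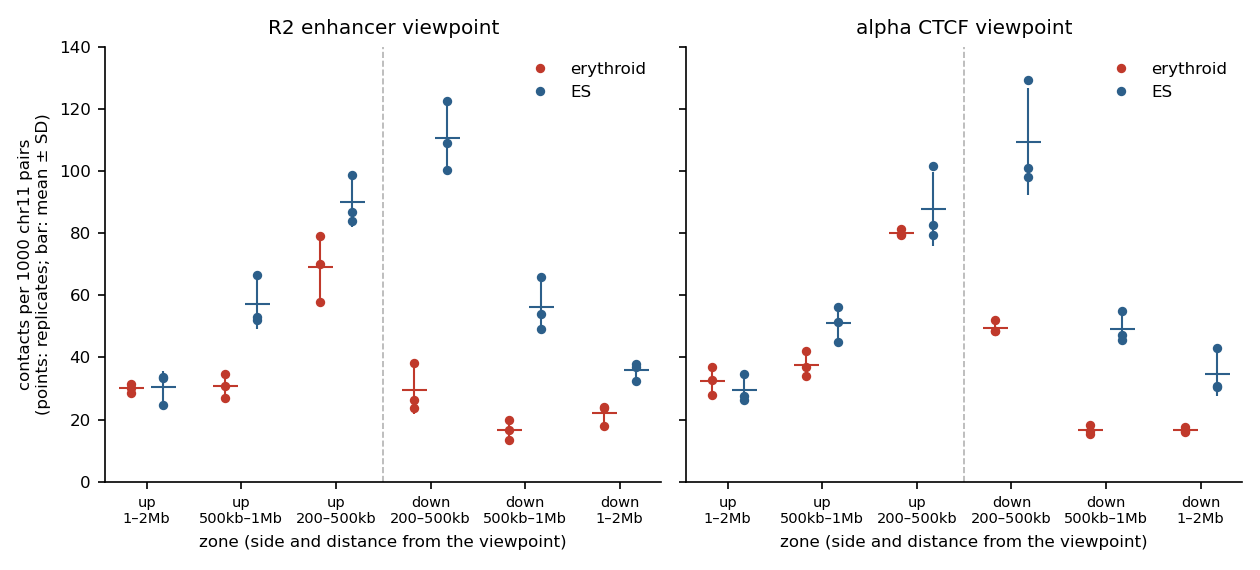
Contacts per 1000 chromosome 11 pairs in each of the 6 mid-range zones, from R2 (left) and alpha CTCF (right), with erythroid replicates left of ES replicates, and bars for the mean ± SD. The upstream zones at 1 to 2 Mb overlap between cell types, whereas all 3 downstream zones are lower in every erythroid replicate.

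Resolved to 50 kb, 20 of the 72 mid-range bins were lower and 2 higher in erythroid cells from R2, and 21 were lower and 3 higher from alpha CTCF (edgeR, adjusted over all chromosome 11 bins). Among all bins tested, 1.17% of 2304 were lower and 5.08% higher from R2, and 1.31% of 2213 were lower and 4.20% higher from alpha CTCF. The median log2 change was -0.73 over the mid-range bins from R2, against 1.06 over all bins, and -0.80 from alpha CTCF, against 0.28 over all bins. Relative to the rest of the chromosome, the mid-range bins therefore stood lower still than relative to 0. With TMM factors, which bring the median of all bins to 0.16 and 0.00, 36 bins were lower and 0 higher from R2, and 24 lower and 0 higher from alpha CTCF. The replicate groups did not overlap in 43 of 72 mid-range bins from each viewpoint, against 33.6% of all bins from R2 and 23.9% from alpha CTCF. From R2 the erythroid replicates were the lower group in 39 of these bins and the higher in 4, against 3.04% and 30.6% of all bins. For alpha CTCF the counts were 38 lower and 5 higher, against 5.42% and 18.4% of all bins. DESeq2 called 54 mid-range bins lower and 0 higher from R2, against 4.74% and 4.92% of all bins, and 45 lower and 1 higher from alpha CTCF, against 6.53% and 7.61%. Without ES replicate 3, 13 bins were called from R2, and without erythroid replicate 1 or 2, 13 and 15 were called from alpha CTCF.

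The downstream loss formed an unbroken stretch. From R2, all 14 downstream bins between 200 and 900 kb were lower, by -1.54 to -2.29 on the log2 scale, and from alpha CTCF 13 of these 14 were, with the bin at 450 to 500 kb, picked out after its values were seen, missing the threshold (-0.69, edgeR adjusted p = 0.065). At 250 to 300 kb (chr11:32401018-32451017), R2 made 3.54, 4.08 and 4.25 contacts per 1000 pairs in erythroid replicates and 19.8, 16.6 and 21.6 in ES replicates, a change of -2.29 (SE 0.24, edgeR adjusted p = 4.7e-06). The values at 300 to 350 kb were 5.26, 4.17 and 6.79 in erythroid replicates and 26.4, 23.9 and 24.8 in ES replicates, a change of -2.21 (SE 0.24). Both bins were thus far below every ES replicate. The bins at 500 to 550 kb (-2.10, SE 0.36) and at 800 to 850 kb (-2.19, SE 0.38) completed the largest downstream falls from R2.

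The largest falls from alpha CTCF lay farther out. At 750 to 800 kb downstream (chr11:32887491-32937490) it made 0.73, 1.03 and 1.10 contacts per 1000 pairs in erythroid replicates and 3.62, 6.84 and 4.48 in ES replicates, a change of -2.38 (SE 0.35, edgeR adjusted p = 6.2e-04). The bin at 1300 to 1350 kb had a change of -2.42 (SE 0.43), and the 3 bins from 550 to 700 kb had changes of -1.85 to -1.92. These 5 bins kept their call in all 17 alternative settings run for them, as did the 4 downstream bins named from R2.

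The stretch ended at 900 kb. In the bin at 900 to 950 kb downstream, also picked out after its values were seen, the erythroid means were 1.66 from R2 and 2.61 from alpha CTCF, against 1.99 and 2.91 in ES cells, changes of -0.25 (SE 0.42) and -0.16 (SE 0.31). From 900 kb to 2 Mb, 1 of 22 bins was called lower from R2 and 4 of 22 from alpha CTCF, although the fitted change was below 0 in all 22 from each.

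**Figure D3:**
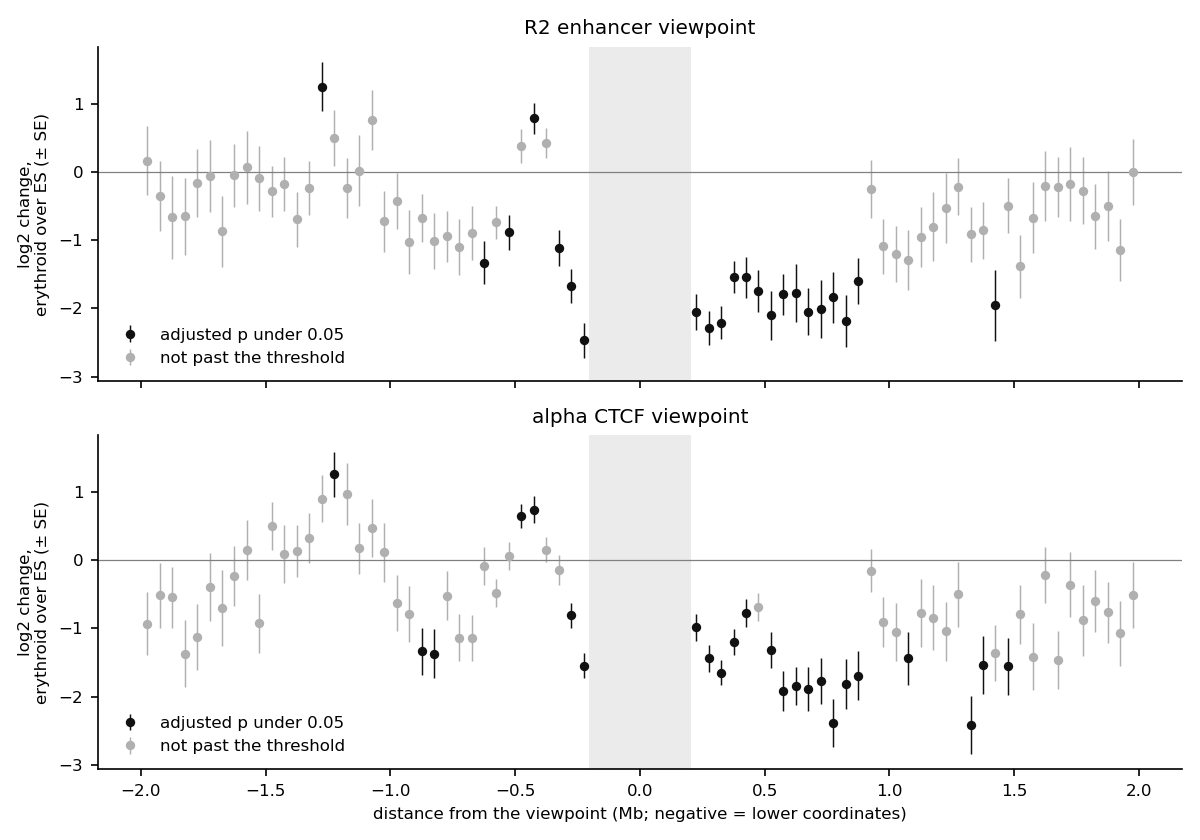
Log2 change, erythroid over ES, with its SE, in each 50 kb mid-range bin by distance from the viewpoint in Mb, for R2 (top) and alpha CTCF (bottom). Black points passed an adjusted p of 0.05. Every black point downstream lies below 0, and the black points above 0 are upstream, near 400 to 500 kb and near 1200 to 1300 kb.

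Upstream, the erythroid profile did not fall with distance but first climbed. In the first upstream bin, 200 to 250 kb (chr11:31901017-31951016), R2 made 3.04, 4.28 and 5.31 contacts per 1000 pairs in erythroid replicates and 22.3, 21.5 and 26.1 in ES replicates. This change of -2.47 (SE 0.25, edgeR adjusted p = 4.7e-06) was the largest fall of any mid-range bin from R2. At 400 to 450 kb (chr11:31701017-31751016) the same erythroid replicates made 23.5, 18.9 and 31.3 contacts per 1000 pairs and the ES replicates 12.8, 17.3 and 12.7. Each erythroid replicate thus contacted the more distant bin several times as often as the nearer one, which no ES replicate did.

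This bin was 1 of the 2 called higher in erythroid cells from R2 (0.78, SE 0.22, edgeR adjusted p = 0.043). Its rise stayed below the median change of all bins from R2. It turned to -0.15 with TMM factors, -0.25 scaled to the whole table and -0.15 in DESeq2, and 7 further alternatives of 17 ended the call, among them leaving out erythroid replicate 1 or 3 or ES replicate 1 or 3. From alpha CTCF, the bins at 400 to 450 kb (17.2 ± 0.92 in erythroid and 10.3 ± 2.54 in ES cells) and 450 to 500 kb (17.7 ± 0.43 in erythroid and 11.3 ± 0.82 in ES cells; SD, n = 3) were called higher, by 0.74 (SE 0.20) and 0.65 (SE 0.17). Their edgeR adjusted p-values were 0.032 and 0.031, and 10 and 11 of 17 alternatives ended these calls, among them TMM factors and leaving out any erythroid replicate or ES replicate 1 or 2.

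The shape of the profile, which needs no scaling, separated the cell types more plainly. These distance ranges were chosen after the profiles were seen, so their values are descriptions. The log2 ratio of upstream contacts at 350 to 500 kb over those at 200 to 350 kb from R2 was 1.88, 1.63 and 1.70 in erythroid replicates and -0.65, -0.37 and -0.73 in ES replicates. The alpha CTCF ratios were 0.97, 0.80 and 0.88 in erythroid replicates and -0.63, -0.26 and -0.48 in ES replicates. Every erythroid replicate had more contacts in the outer range and every ES replicate more in the inner one. Downstream, the same ratio averaged -0.02 in erythroid and -0.57 in ES cells from R2, and -0.03 in erythroid and -0.42 in ES cells from alpha CTCF.

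At 10 kb, the highest erythroid window between 200 and 800 kb upstream was the same from both viewpoints: 400 to 410 kb from the R2 centre, chr11:31741017-31751016. From R2 it received 8.53, 7.0 and 11.1 contacts per 1000 pairs in erythroid replicates and 3.44, 6.38 and 4.08 in ES replicates. From alpha CTCF it received 7.78, 5.36 and 7.98 in erythroid replicates and 3.39, 5.24 and 3.60 in ES replicates. The groups did not overlap from either viewpoint, though erythroid replicate 2 and ES replicate 2 lay close together in both. The highest ES window was instead the innermost, 200 to 210 kb, with a mean of 1.21 in erythroid and 7.02 in ES cells from R2, and 2.23 in erythroid and 6.51 in ES cells from alpha CTCF.

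**Figure D4:**
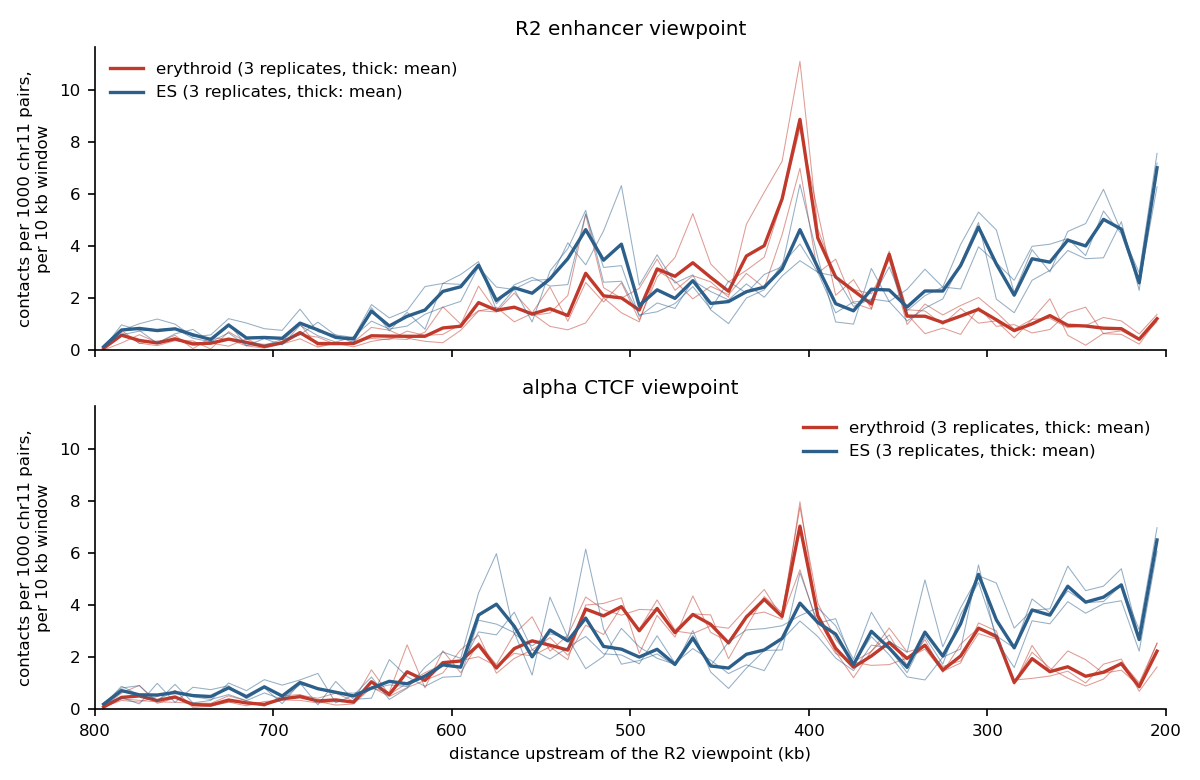
Contacts per 1000 chromosome 11 pairs in 10 kb windows from 800 to 200 kb upstream of the R2 centre, from R2 (top) and alpha CTCF (bottom); thin lines are replicates, thick lines means. Erythroid contacts peak in the window at 400 to 410 kb from both viewpoints, and contacts of both cell types are low beyond 650 kb.

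Past 600 kb upstream, contacts dropped in both cell types, and the ratio across the drop was larger in erythroid cells. The ranges compared here were also chosen after the profiles were seen, so their values are descriptions. The inner range includes the erythroid peak, which by itself raises the erythroid ratio. The log2 ratio of contacts at 400 to 600 kb over those at 650 to 850 kb upstream was 3.55, 2.66 and 3.37 in erythroid replicates and 2.36, 2.33 and 2.02 in ES replicates from R2. From alpha CTCF it was 3.38, 3.32 and 3.29 in erythroid replicates and 2.12, 2.03 and 1.93 in ES replicates. The drop was larger in all erythroid replicates from both viewpoints. Downstream over the same distances, the ratio was 1.14 ± 0.43 in erythroid and 0.93 ± 0.08 in ES cells from R2, with overlapping replicates, and 2.27 ± 0.18 in erythroid and 1.29 ± 0.11 in ES cells from alpha CTCF (SD, n = 3).

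Near 1.2 to 1.3 Mb upstream, 1 further bin from each viewpoint was called higher in erythroid cells. From R2, the bin at 1250 to 1300 kb (chr11:30851017-30901016) received 6.00, 3.5 and 3.95 contacts per 1000 pairs in erythroid replicates and 1.86, 1.67 and 2.13 in ES replicates (log2 change 1.25, SE 0.36, edgeR adjusted p = 0.043). From alpha CTCF, the bin at 1200 to 1250 kb (chr11:30887490-30937489) received 3.71, 4.09 and 2.82 in erythroid replicates and 1.55, 1.33 and 1.56 in ES replicates (1.26, SE 0.33, edgeR adjusted p = 0.03). Both bins, which overlap on the genome, were higher in every erythroid replicate. The R2 change was near the median change of all bins from R2, 1.06, whereas that from alpha CTCF lay above its median, 0.28. The call ended in 10 of 17 alternatives for R2 and 9 of 17 for alpha CTCF, TMM factors included. The lowest changes over these alternatives were 0.18 for R2 and 0.84 for alpha CTCF. Leaving out erythroid replicate 1 or 3 or ES replicate 1 or 3 ended both.

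Contacts fell with distance along a shallower line in erythroid than in ES cells. The decay slope, fitted to log2 counts of 36 distance bins with both sides summed, was -1.16, -1.0 and -1.16 in erythroid replicates and -1.51, -1.61 and -1.58 in ES replicates from R2. The alpha CTCF slopes were -1.40, -1.41 and -1.42 in erythroid replicates and -1.51, -1.57 and -1.48 in ES replicates. The groups did not overlap, and the difference was 0.46 (SE 0.06) from R2 and 0.11 (SE 0.02) from alpha CTCF (exact permutation p = 0.1 for both, adjusted 0.133). The alpha CTCF difference was 0.04 with a lower bound of 300 kb, where the groups overlapped (exact permutation p = 0.5), and 0.27 with an upper bound of 1.5 Mb. From R2 the slope was shallower on each side alone, -1.26 in erythroid and -1.60 in ES cells upstream, and -0.89 in erythroid and -1.54 in ES cells downstream. For alpha CTCF, the downstream slopes were -1.33 in erythroid and -1.52 in ES cells without overlap, whereas the upstream slopes of -1.51 in erythroid and -1.55 in ES cells overlapped.

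A single power law described ES cells better than erythroid cells. The share of variance of the mean log2 profile that it accounted for was 0.690 in erythroid and 0.931 in ES cells from the R2 enhancer, and 0.792 in erythroid and 0.915 in ES cells from alpha CTCF. Each bin was set against an even split of this line between the sides, so the erythroid lean upstream is part of the excess of upstream bins. The bins farthest above the erythroid line from R2 were 400 to 450 kb, 450 to 500 kb and 1250 to 1300 kb upstream, by 2.42, 1.75 and 1.70 on the log2 scale. From alpha CTCF they were 450 to 500 kb, 500 to 550 kb and 400 to 450 kb upstream, by 1.78, 1.63 and 1.52. In ES cells the bin farthest above the line was 500 to 550 kb upstream from R2, by 1.19, and 1650 to 1700 kb downstream from alpha CTCF, by 1.12. The contribution of the higher far level in erythroid libraries to the slopes was not tested.

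Each Tri-C pair also shows where the second fragment lay. Most pairs of 2 mid-range fragments were near neighbours: 70.2% ± 2.27 in erythroid and 65.7% ± 11.9 in ES cells lay within 2 kb of each other from R2, and 67.0% ± 4.37 in erythroid and 62.6% ± 12.2 in ES cells from alpha CTCF (SD, n = 3). Touching fragments alone made up 52.8% in erythroid and 48.7% in ES cells from R2. Whether touching fragments were separate contacts or uncut stretches of DNA was not tested. With all pairs kept, the share of chromosome 11 partners within 200 kb of the viewpoint was 21.3% ± 2.09 in erythroid cells and 25.2% ± 6.35 in ES cells from R2 (n = 3, exact permutation p = 0.4). From alpha CTCF it was 25.0% ± 2.56 in erythroid cells and 26.97% ± 7.78 in ES cells (n = 3, exact permutation p = 0.7). Adjusted over the 8 comparisons these became 0.457 and 0.7, and the replicates overlapped. ES replicate 2, at 17.9% and 18.2%, stood below the other ES replicates, and it also had the highest share of pairs within 2 kb. Without it the differences were -7.64 and -6.36 points from R2 and alpha CTCF. Without ES replicate 1 the difference from alpha CTCF turned to 0.98 points.

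With pairs within 2 kb left out, a setting added after the data were seen, the ES replicates drew together and the cell types separated. Among chromosome 11 partners from R2, 38.2%, 38.5% and 37.01% lay within 200 kb of the viewpoint in erythroid replicates, and 45.03%, 47.7% and 46.8% in ES replicates. From alpha CTCF they were 43.7%, 40.6% and 42.8% in erythroid replicates and 48.7%, 45.2% and 45.8% in ES replicates. The groups no longer overlapped, with differences of -8.60 and -4.21 points (exact permutation p = 0.1 for both). Over all partners in the same setting, mid-range partners on the same side were also less frequent in erythroid cells, 21.4% ± 3.23 in erythroid and 33.5% ± 1.72 in ES cells from R2, and 24.0% ± 1.36 in erythroid and 32.9% ± 2.12 in ES cells from alpha CTCF. With all pairs kept, these shares overlapped, at 50.6% in erythroid and 61.7% in ES cells from R2 and 51.9% in erythroid and 59.2% in ES cells from alpha CTCF (exact permutation p = 0.3 and 0.5).

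Distant partners were more frequent in erythroid cells, as distant fragments were in the R2 counts as a whole. Of these counts, 81142 of 265527, 74599 of 287895 and 195430 of 469501 had both fragments on chromosome 11 in erythroid replicates. In ES replicates, 273029 of 431427, 107265 of 139337 and 142392 of 213319 did. From alpha CTCF these shares overlapped, but contacts over 10 Mb away were more frequent in erythroid cells from both viewpoints. Whether partner shares differed beyond this was not tested. With pairs within 2 kb left out, chromosome 11 partners over 2 Mb away made up 21.7% ± 0.35 in erythroid and 10.5% ± 1.89 in ES cells from R2, and 19.8% ± 1.33 in erythroid and 9.88% ± 1.45 in ES cells from alpha CTCF. Partners off chromosome 11 made up 24.3% ± 5.24 in erythroid and 11.7% ± 1.17 in ES cells from R2, and 16.4% ± 1.56 in erythroid and 12.1% ± 1.02 in ES cells from alpha CTCF (SD, n = 3). Neither class overlapped between the cell types in this setting. With all pairs kept, the share off chromosome 11 from alpha CTCF did overlap (10.5% in erythroid and 7.28% in ES cells, exact permutation p = 0.2).

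**Figure D5:**
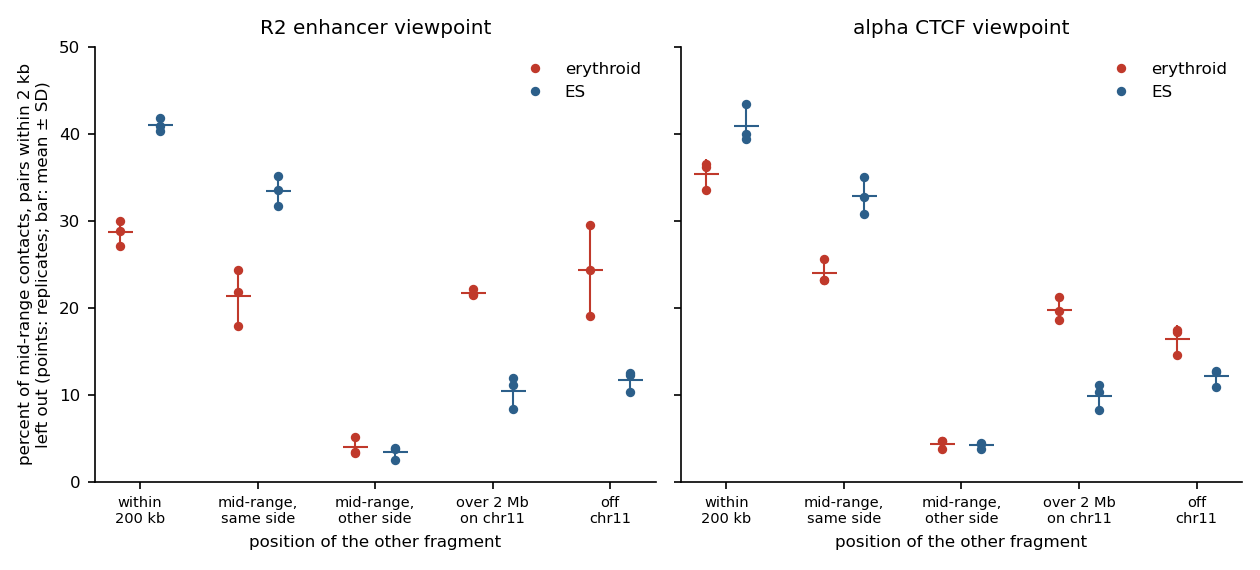
Position of the second fragment of mid-range contacts, as a percent of all mid-range contacts with pairs within 2 kb left out, from R2 (left) and alpha CTCF (right), erythroid replicates left of ES replicates, bars for mean ± SD. Erythroid cells have fewer partners within 200 kb and on the same mid-range side, and more partners over 2 Mb away or off the chromosome; mid-range partners on the other side are at 3.36% to 4.35% on average in each group.

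Mid-range partners lay on the same side of the viewpoint far more often than across it. By definition, fragments on opposite sides are each over 200 kb from the viewpoint, whereas those on one side can lie close together. Contacts fall with distance, so the comparison of sides below cannot separate side from distance. Whether side mattered beyond distance was not tested. With pairs within 2 kb left out, the same-side share exceeded the other-side share by 23.7 ± 7.29 points from R2 and 24.2 ± 5.14 points from alpha CTCF, in 6 of 6 replicates each (SD, n = 6; exact sign-flip p = 0.03125, adjusted p = 0.0511 over 18 comparisons), and by 53.9 and 52.9 points with all pairs kept. Of pairs over 2 kb apart with both fragments at mid-range, 84.4% ± 1.85 in erythroid and 90.8% ± 2.30 in ES cells lay on a single side from R2, and 84.7% ± 1.41 in erythroid and 88.8% ± 0.46 in ES cells from alpha CTCF. Pairs across the viewpoint were a larger share in all erythroid replicates in this setting. With all pairs kept the replicates overlapped, at 95.4% in erythroid and 96.7% in ES cells from R2 and 94.9% in erythroid and 95.8% in ES cells from alpha CTCF (exact permutation p = 0.2 and 0.5). With pairs within 2 kb left out, a downstream contact had its partner upstream at mid-range in 7.72% ± 1.33 of erythroid and 3.53% ± 0.80 of ES cases from R2, and in 7.32% ± 0.90 of erythroid and 4.54% ± 0.57 of ES cases from alpha CTCF. For upstream contacts, the partner was downstream in 3.95% ± 0.84 of erythroid and 4.12% ± 0.97 of ES cases from R2, with overlapping replicates, and in 4.04% ± 0.49 of erythroid and 4.97% ± 0.41 of ES cases from alpha CTCF, without overlap. Keeping all pairs, the downstream contacts still did not overlap between cell types, whereas the upstream ones overlapped from both viewpoints. The upstream and downstream shares count the same pairs across the viewpoint, each divided by the contacts of its own side with chromosome 11 partners. The ratio of these shares within a replicate therefore only restates the asymmetry of those contacts.

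For contacts in the 350 to 500 kb upstream stretch where erythroid contacts peaked, with pairs within 2 kb left out and only chromosome 11 partners counted, the second fragment lay in the same stretch in 26.8% ± 5.22 of erythroid and 22.7% ± 1.8 of ES cases from R2, and in 24.2% ± 0.71 of erythroid and 23.6% ± 1.15 of ES cases from alpha CTCF. The replicates overlapped from both viewpoints. With all pairs kept they overlapped too, at 61.1% ± 3.73 in erythroid and 58.3% ± 13.3 in ES cells from R2 and 57.0% ± 3.84 in erythroid and 57.1% ± 13.1 in ES cells from alpha CTCF. In pairs over 2 kb apart, the partner lay within 200 kb of the viewpoint in 41.7% ± 3.30 of erythroid and 45.5% ± 2.60 of ES cases from R2, and in 43.5% ± 2.86 of erythroid and 45.5% ± 1.52 of ES cases from alpha CTCF, again with overlap. The adjoining range at 200 to 350 kb held the partner less often in all erythroid replicates, 2.30% ± 0.85 in erythroid and 6.08% ± 1.20 in ES cells from R2, and 3.93% ± 0.93 in erythroid and 7.36% ± 1.21 in ES cells from alpha CTCF. This also held with all pairs kept, at 1.21% in erythroid and 3.38% in ES cells from R2 and 2.21% in erythroid and 4.01% in ES cells from alpha CTCF. The innermost bin of this range, 200 to 250 kb upstream, was itself contacted less often in erythroid cells. Its mean level was 4.21 in erythroid and 23.3 in ES cells from R2, and 7.12 in erythroid and 20.8 in ES cells from alpha CTCF. Whether the partner shares fell by more than the contacts of the range as a whole was not tested. Across the drop at 600 to 650 kb, 11.5% ± 3.01 of erythroid and 14.02% ± 3.47 of ES upstream pairs from R2 joined an inner to an outer fragment, and 11.8% ± 1.57 of erythroid and 12.4% ± 2.44 of ES pairs did from alpha CTCF. These shares did not separate the cell types, nor did they with all pairs kept.

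Where the partner lay within 200 kb, its distance differed between the cell types. From R2, 44.4% ± 4.03 of such partners in erythroid and 28.2% ± 0.54 in ES cells were 10 to 50 kb away. In local pairs, with both fragments within 200 kb and over 2 kb apart, the share was 57.2% ± 1.82 in erythroid and 37.2% ± 1.94 in ES cells. For alpha CTCF, the range raised in erythroid cells was 50 to 100 kb, with 26.5% ± 2.29 in erythroid and 18.9% ± 0.90 in ES cells, against 30.2% ± 0.73 in erythroid and 21.8% ± 0.77 in ES local pairs. In these ranges the cell types differed in the same direction for mid-range partners as for local pairs. With pairs within 2 kb left out, mid-range partners were more often 100 to 200 kb away than fragments of local pairs, by 3.67 ± 1.32 points from R2 and 2.91 ± 0.49 points from alpha CTCF, in 6 of 6 replicates each. They were less often 10 to 50 kb away, by -10.9 ± 4.14 and -4.48 ± 1.70 points, also in 6 of 6 (SD, n = 6; exact sign-flip p = 0.03125 for each, adjusted p = 0.0511). Keeping all pairs, the 100 to 200 kb differences were 4.08 and 3.51 points and the R2 difference at 10 to 50 kb was -7.17 points, each in 6 of 6. The alpha CTCF difference at 10 to 50 kb was then -0.60 ± 2.37 points and lower in 3 of 6 (n = 6, exact sign-flip p = 0.531, adjusted 0.531).

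The profiles from both viewpoints were compared within each replicate. Over the 72 bins, the log2 levels from alpha CTCF and from R2 had a Pearson correlation of 0.80 to 0.95 in erythroid and 0.89 to 0.96 in ES replicates, given as a description since the viewpoints share each library. The level from alpha CTCF minus that from R2 was 0.08 ± 0.22 on the log2 scale (SD, n = 6; exact sign-flip p = 0.438, adjusted 0.583 over level, decay, asymmetry and near partners), higher in 3 of 6 replicates. The asymmetry differed by -0.05 ± 0.15 (n = 6, exact sign-flip p = 0.625, adjusted 0.625), and was higher from alpha CTCF in 3 of 6. The decay slope differed by -0.13 ± 0.20 (n = 6, exact sign-flip p = 0.219, adjusted 0.438). It was steeper from alpha CTCF in erythroid cells, by -0.30 on average, whereas in ES cells the difference was 0.05 (exact permutation p of the contrast 0.1). In erythroid cells alone, the log2 level from alpha CTCF minus that from R2 was 0.79 at 200 to 500 kb downstream, against -0.02 in ES cells. The share of near partners was higher from alpha CTCF in 6 of 6 replicates, by 2.75 ± 2.03 points (n = 6, exact sign-flip p = 0.03125, adjusted 0.125), but in 4 of 6 with pairs within 2 kb left out.

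At the bounds of the range, the first upstream bin inside, 200 to 250 kb, averaged 4.21 contacts per 1000 pairs in erythroid and 23.3 in ES cells from R2, and the bin just outside, 150 to 200 kb, averaged 4.53 in erythroid and 29.2 in ES cells. Downstream, the inside bin averaged 5.28 in erythroid cells and 21.9 in ES cells, while the outside one averaged 5.44 in erythroid and 25.8 in ES cells. From alpha CTCF the upstream bins averaged 7.12 in erythroid and 20.8 in ES cells inside, and 10.2 in erythroid and 23.6 in ES cells outside, and the downstream bins 10.9 in erythroid and 21.6 in ES cells inside, and 14.1 in erythroid and 26.6 in ES cells outside. At the outer bound, the bins at 1950 to 2000 kb and 2000 to 2050 kb averaged 0.66 to 1.38 contacts per 1000 pairs in erythroid and 0.94 to 1.52 in ES cells over both sides and viewpoints.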

How the data were processed

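Tri-C was measured in 17 libraries, and the values analysed are the whole-number counts that the authors deposited for each pair of NlaIII fragments per library and viewpoint. Per the submitters' processing notes, the tools include Trim Galore and Bowtie and the build is mm9; their versions and roles, and how fragments were called and duplicates handled, were not given in the sources used here. Viewpoints were centred on the longest gap without fragments around each site. Each mid-range fragment added its pair's count to 1 of 72 bins of 50 kb, or 1 of 6 zones, per 1000 pairs with both fragments on chromosome 11; the second fragment could lie anywhere. Fragments off chromosome 11 were used only as a share.

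Bins with at least 50 counts, and 14 zones over the whole chromosome, were tested with edgeR 4.0.16 (R 4.3.3, quasi-likelihood, no normalization factors) with Benjamini-Hochberg adjustment over all of them at 0.05; each SE is the absolute log2 change over the root of its F statistic. DESeq2 1.42.0 was an alternative. Slopes used log2(count + 0.5) and least squares. Single values were compared with exact two-sided permutation or, within replicates, sign-flip tests (Python 3.11.15, scipy 1.17.1), whose smallest p-values are 0.1 and 0.03125. The bins named in the text were the first and last bins, up to 5 called bins per direction and viewpoint with the largest change and no overlap, and up to 3 bins per cell type farthest above the fitted decay. The members, lists and tests were chosen with earlier results of these data known. The tests were checked on simulated counts. Alternatives covered scaling, bounds, bin width, filters, repeat counting and each replicate left out. Leaving out pairs within 2 kb was chosen after seeing the data, so partner shares are given with all pairs too where this changes an overlap or a test.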

Additional observations from a re-analysis of the deposited data

Results flagged for a closer look

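Of 81 measures compared between viewpoints within replicates, many of them overlapping, 8 went opposite ways in the cell types: every erythroid replicate lay on one side of 0 and every ES replicate on the other. The values below are alpha CTCF minus R2. The log2 level was 0.24 in erythroid and -0.08 in ES cells, a difference of 0.319 between cell types. At 500 kb to 1 Mb upstream it was 0.29 in erythroid and -0.16 in ES cells, a difference of 0.453.

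The share of mid-range contacts with a partner off chromosome 11 was -4.96 points in erythroid and 0.62 points in ES cells, a difference of -5.586, or -8.316 with pairs within 2 kb left out. The share of near partners lying 10 to 50 kb away was -16.7 points in erythroid and 2.5 points in ES cells, a difference of -19.186, or -19.198 with pairs within 2 kb left out. Among local pairs, with both fragments within 200 kb, the share touching each other was 2.70 points in erythroid and -3.86 in ES cells, a difference of 6.562, and the share within 2 kb was 4.04 points in erythroid and -2.19 in ES cells, a difference of 6.235.

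The exact permutation p of each of the 8 differences was 0.1, the smallest that 3 against 3 allows (n = 3 each). No cause was tested.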

How the results depend on the processing

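Levels, slopes, asymmetries, downstream zones and the named falls kept their direction in every alternative run for them, and each named fall kept its call; the level difference ranged from -2.04 to -0.74 from R2 and from -0.72 to -0.47 from alpha CTCF, and the slope difference from alpha CTCF from 0.04 to 0.27. The count of called mid-range bins moved most. From R2 (22 called) it was 36 with TMM factors, 37 scaled to the whole table, 54 in DESeq2, 36 with each pair counted once per library or once per biological replicate, 14 of 36 bins of 100 kb, and 13 to 21 with 1 replicate left out. From alpha CTCF (24 called) it was 46 in DESeq2, 40 with each pair counted once by either rule, 14 of 36 bins of 100 kb, and 13 to 24 with 1 replicate left out. Counting once per biological replicate, leaving out pairs within 2 kb and subtracting the far level were added after seeing the data.

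The replicate numbers are shared between cell types. Over the mid-range bins, the deviations of same-numbered replicates from the mean of their cell type correlated by -0.212 to 0.124. With 3 replicates per cell type this cannot decide whether the numbers pair them, and they were treated as unpaired. With the replicate as a block, 19 bins were called from R2 and 15 from alpha CTCF, and 4 zones from each.

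With 1 replicate left out, the near-partner difference from alpha CTCF ranged from -6.36 to 0.984 points and the viewpoint difference in asymmetry from -0.084 to 0.0075. The upstream bin at 400 to 450 kb from R2 turned to -0.15 with TMM factors, -0.25 scaled to the whole table and -0.15 in DESeq2. The upstream zone at 1 to 2 Mb from R2, near 0 and not called, turned to 0.024 with TMM factors, 0.26 in DESeq2, 0.089 without technical replicate 1 libraries, 0.072 without pairs within 2 kb, and 0.020, 0.054 and 0.059 without erythroid replicate 2, ES replicate 1 or ES replicate 3. The upstream zone at 200 to 500 kb from alpha CTCF, also not called, turned to 0.091 with TMM factors and 0.059 in DESeq2. The causes were not tested. The median change of all R2 bins was 1.06 per chromosome 11 pair, 0.16 with TMM factors and -0.01 per pair of the whole table. Precision is limited by 3 replicates per cell type and, in single bins, by few distinct pairs; counting errors do not cover repeats of a pair.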
